A study of Homo sapiens with 14 samples.

Results

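The genes described here are the glucocorticoid receptor gene NR3C1 and 9 genes that act with it, and the data are the open chromatin regions around them in 2 human multiple myeloma (MM) cell lines, MM.1S and RPMI8226. The genes were chosen by name: the receptor, the hormone-converting enzymes HSD11B1 and HSD11B2, and the target genes FKBP5, TSC22D3, SGK1, PER1, KLF9, DUSP1 and ZBTB16. They are 10 of 20007 protein-coding genes in GENCODE release 44. Every peak that overlapped the body of one of them or the 100 kb on either side was taken, which gave 176 of 72802 reference peaks in MM.1S and 186 of 79969 in RPMI8226, and no peak was counted for more than 1 gene. Both lines are established myeloma lines, and accessibility was measured by Omni-ATAC, in which a transposase cuts and tags open chromatin, on cells isolated by flow sorting. MM cells were grown alone (MONO), in the upper transwell above HS5, a stromal line from human bone marrow (TSW), or in the lower chamber in contact with HS5 (CO). MM.1S had 3 MONO, 3 TSW and 3 CO libraries, and RPMI8226 had 1 MONO, 2 TSW and 2 CO libraries, and each reference list pools the libraries of its line. No glucocorticoid is named among the treatments of these libraries.

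The glucocorticoid receptor rests in the cytoplasm with the chaperone HSP90 and its partners, enters the nucleus when it binds cortisol or a drug such as dexamethasone, and binds DNA as a dimer at an inverted repeat. HSD11B1 regenerates active cortisol from cortisone inside cells and HSD11B2 does the reverse. Glucocorticoids kill lymphoid and plasma cells and belong to the standard treatment of myeloma, and the target genes listed here are switched on by the receptor in many tissues.

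A glucocorticoid receptor (GR) element was searched as AGAACA, a gap of 3 bases and TGTTCT, with at most 2 mismatches in the 12 fixed bases. The element is its own reverse complement, so a match covers both strands. Inside the peaks around the 10 genes there were 14 such matches, 6 of them at FKBP5, 3 at HSD11B1, 2 at TSC22D3, 2 at ZBTB16 and 1 at KLF9, and none inside a peak around NR3C1, HSD11B2, SGK1, PER1 or DUSP1. A single match had no mismatch, 1 match had 1 mismatch and 12 had 2 mismatches. The sequences below are hg38, plus strand, with the match in capitals, and all lie outside annotated untranslated regions. The first and second are shown because they are the only stretches with more than 1 match in a peak, both in an intron of FKBP5 and open in MM.1S only, and the first holds the match without a mismatch.
FKBP5 intron, chr6:35601860-35602106: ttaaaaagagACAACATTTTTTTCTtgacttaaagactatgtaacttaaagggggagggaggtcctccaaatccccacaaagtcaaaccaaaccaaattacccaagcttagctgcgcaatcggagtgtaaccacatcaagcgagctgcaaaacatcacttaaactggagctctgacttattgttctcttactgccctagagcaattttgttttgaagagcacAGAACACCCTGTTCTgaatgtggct
FKBP5 intron, chr6:35611061-35611356: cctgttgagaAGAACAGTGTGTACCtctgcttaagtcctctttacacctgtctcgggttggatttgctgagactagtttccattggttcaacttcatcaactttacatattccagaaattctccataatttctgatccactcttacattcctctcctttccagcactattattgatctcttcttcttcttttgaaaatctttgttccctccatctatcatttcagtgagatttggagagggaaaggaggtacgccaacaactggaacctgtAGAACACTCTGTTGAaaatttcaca

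The next 5 are shown to set the match with 1 mismatch, at TSC22D3, beside matches in peaks of both lines at FKBP5, KLF9 and ZBTB16 and a match in a peak of RPMI8226 only at HSD11B1.
TSC22D3 downstream, chrX:107677195-107677249: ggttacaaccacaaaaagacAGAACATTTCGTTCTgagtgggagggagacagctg
FKBP5 upstream, chr6:35731998-35732052: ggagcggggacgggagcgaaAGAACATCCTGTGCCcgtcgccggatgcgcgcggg
KLF9 upstream, chr9:70420105-70420159: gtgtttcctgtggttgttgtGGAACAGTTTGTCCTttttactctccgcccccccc
ZBTB16 intron, chr11:114080472-114080526: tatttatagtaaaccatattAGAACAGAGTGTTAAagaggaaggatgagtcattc
HSD11B1 intron, chr1:209689609-209689663: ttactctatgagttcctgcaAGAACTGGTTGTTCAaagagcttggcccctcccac

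The deposited lists give for each peak its position and a whole number from 3 to 9 in MM.1S and from 3 to 5 in RPMI8226. This number was read as support, the number of libraries of the line in which the peak was called, since it starts at the authors' minimum of 3 libraries and ends at the number of libraries of the line. Neither read counts nor values per library are part of the lists, so the sequencing depth behind a peak and the spread between libraries cannot be given, and the TSW, CO and MONO libraries could not be compared. By the study's supplement 1 MM.1S MONO library was read far less deeply than the others of its line, and no result can be given without it. Apart from that library, every MM.1S library was read more deeply than any RPMI8226 library. The minimum of 3 libraries was also a larger part of the 5 RPMI8226 libraries than of the 9 MM.1S libraries. The effect of both on peaks absent from the RPMI8226 list was not tested. Of 8 plasma cell markers, 8 had a peak at their promoter in either line, and so had 5 of 8 stromal markers, with COL3A1, THY1 and LUM lacking one in both lines. The study noted a small share of HS5 cells in CO samples, and the part of stromal reads in the peaks was not tested. Intervals below are 95% Wilson intervals over peaks, cover counting error only, and treat neighbouring peaks as independent.

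All 10 genes had a peak at their own promoter in both lines, and in both lines every gene had such a peak in all libraries. A peak counted as a promoter peak when it came within 2500 bp of a start site of any GENCODE transcript. Over all protein-coding genes 76.9% had one in MM.1S and 71.9% in RPMI8226. There were 27 own-promoter peaks in MM.1S, 22 of them shared with RPMI8226 by an overlap of at least 1 bp, and 28 in RPMI8226, 25 of them shared. Thus the promoters of the receptor, the enzymes and the targets were listed as open in either line, a state most protein-coding genes also had. The exception was ZBTB16 in RPMI8226, whose peaks lay at internal starts of other transcripts, so that 9 genes counted at protein-coding transcripts alone.

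Around the 10 genes, 122 of 176 MM.1S peaks overlapped an RPMI8226 peak, a share of 69.3% (62.2 to 75.7) beside 64.6% of the whole list. In RPMI8226 the share was 135 of 186, or 72.6% (65.8 to 78.5), beside 62.0%. Promoter peaks of any gene made up 90 of the 176 peaks in MM.1S, 51.1% (43.8 to 58.4) beside 39.2%, and 98 of the 186 in RPMI8226, 52.7% (45.5 to 59.7) beside 36.0%. Each window was placed on a gene and held its start sites, whereas the whole list also covers regions far from genes. A higher promoter share was thus in part built into the choice of windows, and windows of other genes were not compared. The higher promoter share in MM.1S rested on PER1, without which it was 65 of 147 peaks, 44.2% (36.4 to 52.3), an interval that held the share of the list. Of the promoter peaks, 67 of 90 were shared in MM.1S, 74.4% (64.6 to 82.3) beside 71.8% of the list, and 79 of 98 in RPMI8226, 80.6% (71.7 to 87.2) beside 76.6%, both near the list. Among distal peaks alone, 55 of 86 were shared in MM.1S, 64.0% (53.4 to 73.3) beside 60.0% of the list, and 56 of 88 in RPMI8226, 63.6% (53.2 to 72.9) beside 53.7%. The interval for distal peaks held the share of the whole list in both lines, if only just in RPMI8226.

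Peaks of both lists that overlapped were joined into 227 regions, of which 122 were open in both lines, 54 in MM.1S only and 51 in RPMI8226 only. In 11 of the 122 regions 1 MM.1S peak lay over several RPMI8226 peaks, and in 0 regions was it the reverse. MM.1S peaks were wider, with a median of 598 bp around the 10 genes beside 536 bp in the whole list, against 376 and 362 bp in RPMI8226. The median gene had 5.82 peaks per 100 kb of its window in MM.1S, beside 4.06 over all protein-coding genes, and 6.04 beside 4.37 in RPMI8226. PER1 lay at the upper end with 13.4 and 14.8 peaks per 100 kb, and KLF9 at the lower end in MM.1S with 1.74. ZBTB16 was lowest in RPMI8226, with 2.51.

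**Figure D1:**
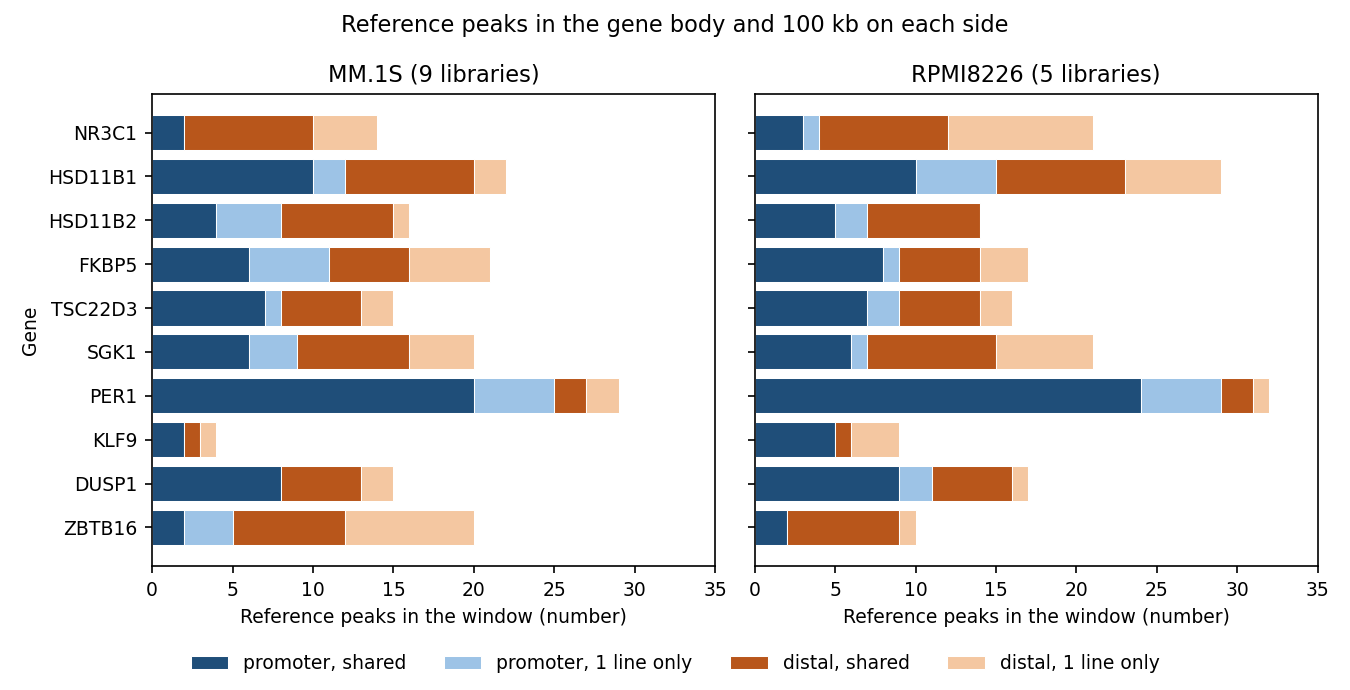
Number of reference peaks (horizontal axis) in the window of each gene in MM.1S and RPMI8226, split by colour into promoter and distal peaks that are shared between the lines or found in 1 line only. ZBTB16 had 20 peaks in MM.1S and 10 in RPMI8226, whereas NR3C1 had 14 and 21.

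The receptor gene NR3C1 (chr5:143277931-143435512, minus strand) had 14 peaks in MM.1S and 21 in RPMI8226, and of these 4 and 10 were found in that line only. A cluster of its start sites lies about 31.2 kb downstream of the outermost annotated start site. There MM.1S had 1 broad peak of 2783 bp at chr5:143402877-143405659 with support 9, and RPMI8226 had 2 peaks inside it, of 1159 and 834 bp, both with support 5. The outermost start site itself had a peak of 431 bp in MM.1S, with support 8, and of 410 bp in RPMI8226, with support 5. Both promoter areas of the receptor gene were thus open in both lines, and its peaks of 1 line only were mostly distal. Of its distal MM.1S peaks 8 of 12 were shared, 66.7% (39.1 to 86.2) beside 60.0% of the list. In RPMI8226 8 of 17 were shared, 47.1% (26.2 to 69.0) beside 53.7%. Both intervals held the share of the list.

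Of 17 distal peaks of NR3C1 in RPMI8226, 9 were absent from the MM.1S list, and 6 of those 9 had support 5. The 4 line-only peaks within the gene body of NR3C1 had supports of 5, 3, 5 and 3, at 79.6, 48.6, 38.1 and 17.0 kb from the start site. Upstream, the peaks at 81.0 and 92.5 kb were open in all 5 RPMI8226 libraries and in no MM.1S reference peak, while the peak at 74.5 kb was shared with support 9 and 5. Of the 12 distal MM.1S peaks of NR3C1, 4 were in MM.1S only, and 3 of these lay beyond the end of the gene, in introns of the neighbour ARHGAP26, with supports 9, 9 and 8. Of the distal peaks the widest was the same in both lines, at chr5:143229446-143230599 in MM.1S (1154 bp, support 9) and 1153 bp wide in RPMI8226 (support 5). The longest stretch with peaks of 1 line was 41.7 kb within NR3C1, at chr5:143355822-143397551, with 3 RPMI8226 peaks of support 5, 3 and 5.

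HSD11B1 (chr1:209686178-209734949, plus strand) had 22 peaks in MM.1S and 29 in RPMI8226, and most were promoters of its neighbours or distal peaks outside the gene. Its own promoter peak was almost the same in both lines, 455 bp with support 9 in MM.1S and 441 bp with support 5 in RPMI8226. RPMI8226 had an intronic peak 3.49 kb into the gene, at chr1:209689553-209689779, with support 5, that MM.1S lacked, and this peak holds the HSD11B1 sequence printed above. The nearest MM.1S peak was 3043 bp from that match. Both other GR element matches at HSD11B1 were in peaks of both lines with support 9 and 5, 61.9 kb beyond the start site and 142 kb beyond it at the promoter of UTP25. The widest distal peak in MM.1S, 784 bp in an intron of LAMB3 at 44.6 kb upstream, was absent from RPMI8226 and belonged to the longest MM.1S-only stretch, 2 peaks with support 9 over 8.49 kb. In RPMI8226 the widest distal peak was 543 bp, at 61.8 kb, and shared.

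HSD11B2 (chr16:67430652-67437553, plus strand), which inactivates cortisol, had a promoter peak of 1085 bp in MM.1S with support 9 and of 1357 bp in RPMI8226 with support 5. A peak 2.33 kb upstream of its start, at chr16:67428058-67428579, was in MM.1S only, with support 8. All 7 distal RPMI8226 peaks around HSD11B2 were shared, and so were 7 of 8 in MM.1S, the exception being a peak of 511 bp with support 9 in an intron of ZDHHC1, 31.0 kb upstream. Its widest distal peak was shared, at 83.9 kb, with 910 bp in MM.1S and 884 bp in RPMI8226 and support 9 and 5. The longest stretch of 1 line was 31.1 kb, with 2 RPMI8226 peaks of support 4 and 5 at promoters of other genes. Both enzymes therefore had an open promoter in both lines, and HSD11B2 had the larger share of its distal regions in common, 7 of 8 regions beside 8 of 16 for HSD11B1.

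**Figure D2:**
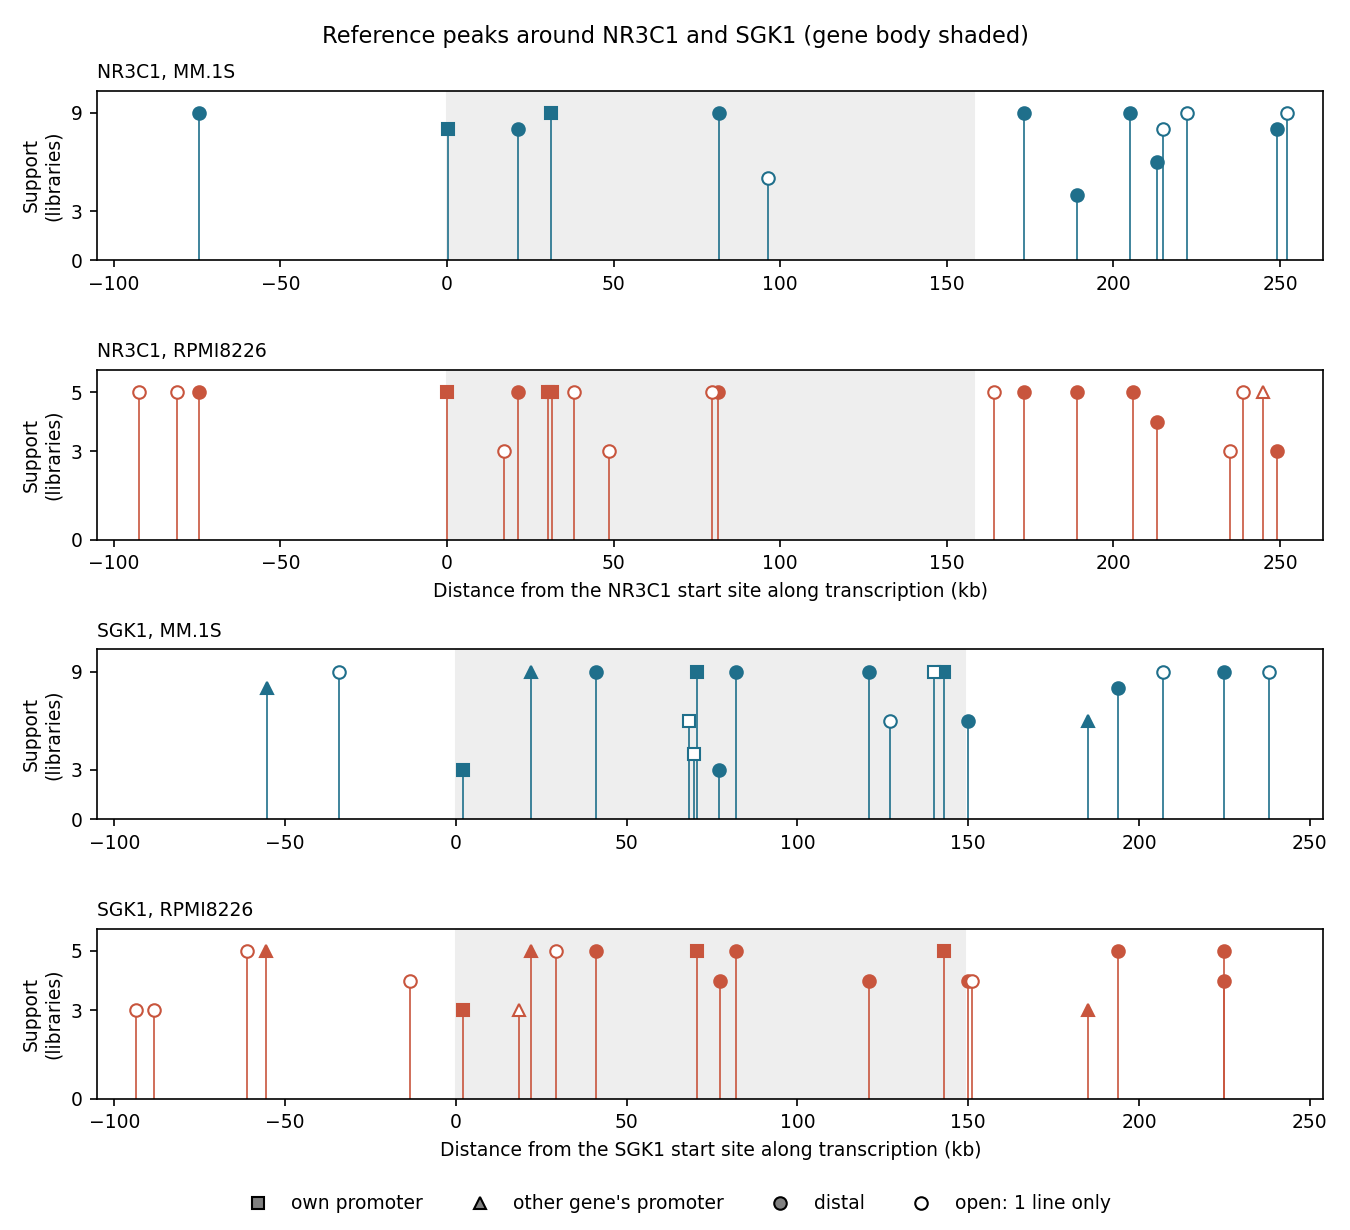
Support (vertical axis, number of libraries) of each peak against its distance in kb from the annotated start site, along transcription, for NR3C1 and SGK1 in both lines. Squares are own-promoter peaks, triangles promoter peaks of other genes, circles distal peaks, and open symbols peaks of 1 line only. NR3C1 had 9 open circles in RPMI8226 and 4 in MM.1S.

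FKBP5 (chr6:35573585-35728583, minus strand) encodes a co-chaperone of HSP90 that lowers the affinity of the receptor for hormone, and is among the genes most responsive to glucocorticoids. It had 21 peaks in MM.1S and 17 in RPMI8226, with 10 and 4 in that line only. The promoter at the annotated start was open in both lines, with 816 bp and support 9 in MM.1S and 789 bp and support 5 in RPMI8226, and an internal start site 40.0 kb downstream had 1 MM.1S peak of 1565 bp over 2 RPMI8226 peaks of 788 and 745 bp, all with the highest support. The lines differed in the introns between 117 and 127 kb from the start site.

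Here MM.1S had 3 peaks over 10.3 kb, at chr6:35601309-35611601, and RPMI8226 had none. They had supports of 8, 3 and 9 of 9 libraries. The longest MM.1S-only stretch of FKBP5 was a pair of peaks of support 8 over 13.1 kb, at chr6:35568951-35582069, and the 3 peaks in a row were the most. The peak at chr6:35601309-35602144, 836 bp with support 8, holds the GR element match without a mismatch and a second match with 2 mismatches, and an AP-1 match. The peak at chr6:35610941-35611601, 661 bp with support 9, holds 2 matches with 2 mismatches each. Thus 4 of the 6 GR element matches in FKBP5 peaks lay in peaks open in MM.1S and absent from the RPMI8226 list, whose nearest peak was 17731 bp or more away. Sensitivity to glucocorticoids was not measured in these data for either line.

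The 2 remaining matches at FKBP5 lay upstream. The one printed above, 3.44 kb upstream, was in a peak of both lines, 943 bp with support 9 in MM.1S and 417 bp with support 5 in RPMI8226. The other, 54.0 kb upstream at the promoter of CLPSL1, was in an RPMI8226 peak of 137 bp with support 3, the lowest value in the list. The widest distal FKBP5 peak was shared, in an exon of TEAD3 at 254 kb, with 1078 bp and support 8 in MM.1S and 917 bp and support 4 in RPMI8226. Of the distal RPMI8226 peaks of FKBP5, 2 of 8 were found in all 5 libraries, beside 58.5% of distal peaks in the whole list. In MM.1S 4 of 10 were found in all 9 libraries, beside 42.0%, and both counts are small. The 3 distal RPMI8226 peaks not seen in MM.1S all had support 3.

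**Figure D3:**
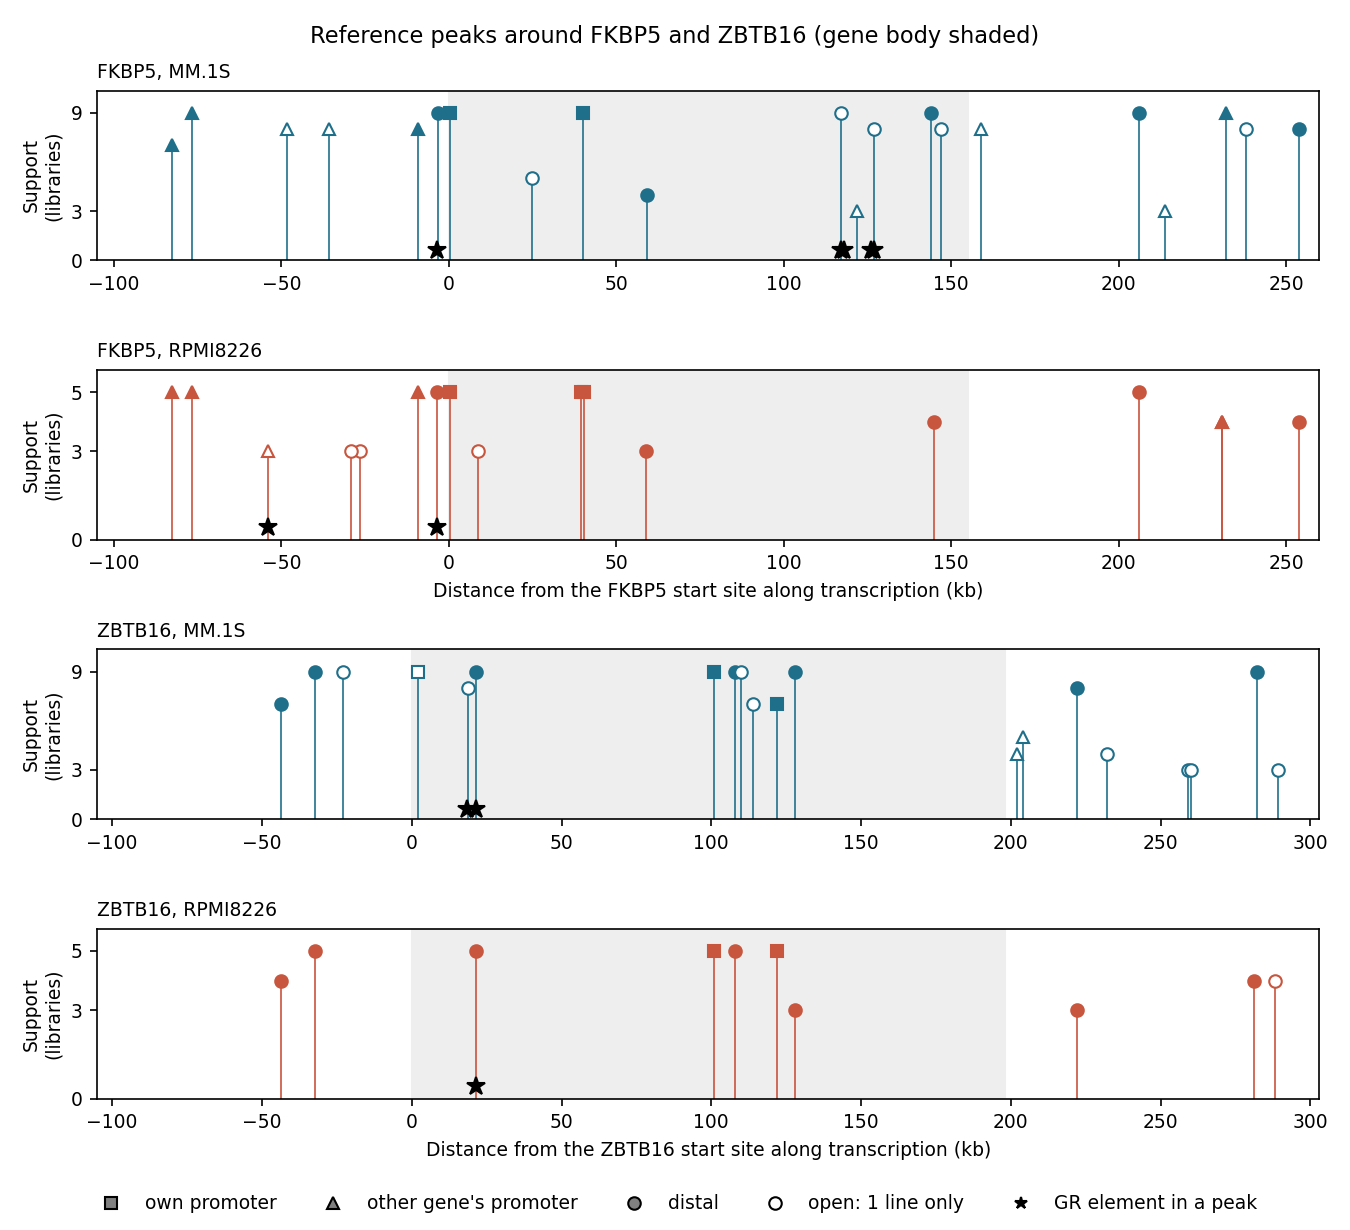
Support (vertical axis, number of libraries) of each peak against its distance in kb from the annotated start site, along transcription, for FKBP5 and ZBTB16 in both lines. Symbols are squares for own promoters, triangles for promoters of other genes, circles for distal peaks and open symbols for 1 line only, and stars mark GR element matches. FKBP5 has 4 stars between 117 and 127 kb in MM.1S and none there in RPMI8226, and ZBTB16 has an open square at 1.97 kb in MM.1S with no peak there in RPMI8226.

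TSC22D3 (chrX:107713221-107777342, minus strand) encodes GILZ, an anti-inflammatory leucine zipper protein, and had 15 peaks in MM.1S and 16 in RPMI8226. At the outermost start both lines had a peak of nearly equal width, 375 and 367 bp, with support 9 and 5. A second peak 1.27 kb further on had 970 bp in MM.1S and 606 bp in RPMI8226, and a start site inside the gene, 60.5 kb from the outermost one, had a peak of 1627 bp in MM.1S and of 733 bp in RPMI8226, again with the highest support. TSC22D3 also had 2 own-promoter peaks in RPMI8226 only, 55.9 and 19.9 kb from the outermost start, both with support 5. In turn, a peak of 1276 bp at the promoter of the neighbour MID2 had support 9 in MM.1S and no partner in RPMI8226.

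The match with 1 mismatch lay 100 kb downstream of the TSC22D3 start, inside an MM.1S peak of 757 bp with support 9, at chrX:107676507-107677263. That peak was shared with an RPMI8226 peak of 340 bp with support 4, but the RPMI8226 peak ended 37 bp short of the match. The other TSC22D3 match was at 66.3 kb in an intergenic peak of both lines, 504 and 495 bp wide with support 9 and 5. The widest distal peak was intronic and shared, at 35.2 kb, with 1066 bp in MM.1S and 987 bp in RPMI8226. Of the distal peaks in 1 line only, the MM.1S pair at 104 and 122 kb spanned the longest such stretch, 18.2 kb, with supports 9 and 8.

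SGK1 (chr6:134169248-134318112, minus strand), a survival kinase induced by glucocorticoids, had 20 peaks in MM.1S and 21 in RPMI8226, with 7 in 1 line only on either side. A start site 143 kb into the annotated gene had a peak of 1176 bp in MM.1S and 1150 bp in RPMI8226 with the highest support. Near the outermost start there were only narrow peaks of 161 and 179 bp, with support 3 in both lines. A second internal start at 70.7 kb was also open in both lines, with 695 and 665 bp. MM.1S had 3 further own-promoter peaks that RPMI8226 lacked, at 140, 69.7 and 68.4 kb, with supports 9, 4 and 6. The widest promoter peaks of SGK1 were thus common to the lines, and the MM.1S list added narrower ones.

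Of 17 distal SGK1 regions, 7 were in both lines, 4 in MM.1S only and 6 in RPMI8226 only. The intronic peak at 81.9 kb, at chr6:134235893-134236505 in MM.1S, was found in all libraries of both lines and had AP-1, STAT3 and ETS-IRF composite matches in both. The widest distal peak lay just past the end of the gene, at 150 kb, and was shared, with 1216 bp and support 6 in MM.1S and 1061 bp and support 4 in RPMI8226. The longest stretch of 1 line was 32.8 kb upstream in LINC01010, with 3 RPMI8226 peaks of support 5, 3 and 3. There was no GR element match in any of the SGK1 peaks.

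PER1 (chr17:8140472-8156506, minus strand), a circadian clock repressor, lies among 11 other protein-coding genes, and 20 of its 29 MM.1S peaks and 23 of its 32 RPMI8226 peaks were promoter peaks of other genes. The peak over its own start was 954 bp in MM.1S and 661 bp in RPMI8226 with support 9 and 5. Other own-promoter peaks of both lines lay 2.30 kb upstream (387 and 370 bp) and at 5.24 kb (544 and 349 bp), with the highest support. A further one lay at 4.04 kb (277 and 211 bp) with support 6 and 3. The last, at 17.4 kb (1256 and 1062 bp) with the highest support, lay past the end of the gene. It counted only by lying within 2500 bp of an annotated PER1 transcript start. RPMI8226 had an own-promoter peak of 223 bp with support 3 at 2.14 kb that MM.1S lacked. The 300 bp centred on this peak hold a GR element match, which lies just outside the peak itself. Few distal PER1 peaks were listed, 4 in MM.1S and 3 in RPMI8226, of which the widest (745 bp in MM.1S, 46.2 kb from the start, and 643 bp in RPMI8226, 39.7 kb upstream) were shared. The longest stretch of 1 line was 18.0 kb with 3 RPMI8226 peaks of support 3 or 4.

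KLF9 (chr9:70384604-70414657, minus strand), a zinc finger repressor, had the fewest peaks in MM.1S, 4, beside 9 in RPMI8226. By regions the lines were closer, since 5 of the 9 RPMI8226 peaks lay under 2 broad MM.1S peaks. The own-promoter peak was 2260 bp with support 9 in MM.1S, over RPMI8226 peaks of 701 bp with support 5 and 250 bp with support 3. The other broad peak, 2713 bp with support 9 at chr9:70418244-70420956, about 4.94 kb upstream, counted as a promoter of the gene ENSG00000289159, which has no symbol, and lay over 3 RPMI8226 peaks of 254, 951 and 719 bp with support 5. The KLF9 sequence printed above lies in this broad peak and in the 719 bp peak of RPMI8226. Joined into regions, KLF9 had 3 regions in both lines, 1 in MM.1S only and 3 in RPMI8226 only. As its widest distal peak KLF9 had 489 bp in MM.1S, at 8.12 kb within the gene with support 8, and 461 bp in RPMI8226, at 24.1 kb upstream with support 3, and each was absent from the other line. No 2 peaks of 1 line followed each other at KLF9, so its longest stretch was that MM.1S peak alone.

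DUSP1 (chr5:172768096-172771195, minus strand), a phosphatase that switches off MAP kinases, was the most alike between the lines by regions, with 13 of 18 in both, 2 in MM.1S only and 3 in RPMI8226 only. Its 2 own-promoter peaks were found in all libraries of both lines, 1148 and 594 bp wide in MM.1S and 957 and 563 bp in RPMI8226. All 15 DUSP1 peaks in MM.1S had support 7 or more, so each was called in at least 1 library of each culture condition. The widest distal peak was 832 bp with support 8 in MM.1S, 63.7 kb past the start site, and 686 bp with support 5 in RPMI8226, at 92.2 kb, both shared. Peaks of 1 line formed a longest stretch of 16.2 kb, with 2 RPMI8226 peaks of support 4 and 5.

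ZBTB16 (chr11:114059041-114256765, plus strand), which encodes the zinc finger repressor PLZF, had 20 peaks in MM.1S and 10 in RPMI8226. Of its 21 regions 9 were in both lines, 11 in MM.1S only and 1 in RPMI8226 only. The promoter peak nearest to its first start site, 1528 bp with support 9 at chr11:114060245-114061772, had no partner in RPMI8226. Both lines did have peaks at 2 start sites inside the gene, at 101 kb (676 bp with support 9 and 315 bp with support 5) and at 122 kb (552 bp with support 7 and 483 bp with support 5). The peak over its first promoter was therefore a feature of the MM.1S list, and at start sites of protein-coding ZBTB16 transcripts alone RPMI8226 had no peak.

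The longest MM.1S-only stretch at ZBTB16 ran over 42.2 kb around the first start site, chr11:114035988-114078155, with 3 peaks of support 9, 9 and 8. It ended with an intronic peak of 710 bp at 18.8 kb that holds a GR element match with 2 mismatches, 2735 bp from the nearest RPMI8226 peak. That RPMI8226 peak, 407 bp with support 5, holds the ZBTB16 match printed above, as does the MM.1S peak of 1009 bp with support 9 over it, and both hold an AP-1 match. The 407 bp peak was also the widest distal one in RPMI8226, whereas the widest in MM.1S was 1037 bp with support 7 at 114 kb and had no partner. Of 8 distal ZBTB16 peaks in MM.1S only, 2 had support 9, and 3 had support 3.

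The support numbers limit in which culture conditions a peak could have gone uncalled. They do not limit how far accessibility could have differed at a peak called in every condition. A MM.1S peak with support 7 or more was called in every condition, and one with 6 or less may have been missing from all 3 MONO libraries. Around the 10 genes 31 of 176 MM.1S peaks could lack MONO, 17.6% (12.7 to 23.9) beside 27.7% of the whole list. Support 9 was reached by 110 of 176 peaks, 62.5% (55.2 to 69.3) beside 52.0%. In RPMI8226, with 1 MONO library, 63 of 186 peaks could lack it, 33.9% (27.5 to 40.9) beside 35.9%, and 123 were found in all 5 libraries, 66.1% (59.1 to 72.5) beside 64.1%. The share of MM.1S peaks that could lack MONO lay below that of the list whichever gene was left out. The share in all 9 libraries did not stay above it, since without HSD11B1 it was 92 of 154, 59.7% (51.8 to 67.2). Promoter peaks reach support 9 more often than distal peaks, 71.1% and 53.5% around these genes and 67.5% and 42.0% in the whole MM.1S list. Which libraries lacked a peak is not given, so no change between MONO, TSW and CO can be read from these values.

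Peaks in 1 line were less well supported than shared ones, as in the lists as a whole. In MM.1S 20 of 54 line-only peaks around the 10 genes had support 9, 37.0%, beside 90 of 122 shared peaks, 73.8%, and over the whole list the shares were 27.5% and 65.4%. In RPMI8226 20 of 51 line-only peaks had support 5, 39.2%, beside 103 of 135, 76.3%, and over the whole list 43.6% and 76.7%. The line-only peaks in all libraries of RPMI8226 included 7 at NR3C1, 5 at HSD11B1 and 3 at TSC22D3, and those in MM.1S 4 at SGK1, 3 each at HSD11B1, PER1 and ZBTB16, and 1 at FKBP5. Line-only here means absent from the other list, which does not show regions called in fewer than 3 libraries.

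**Figure D4:**
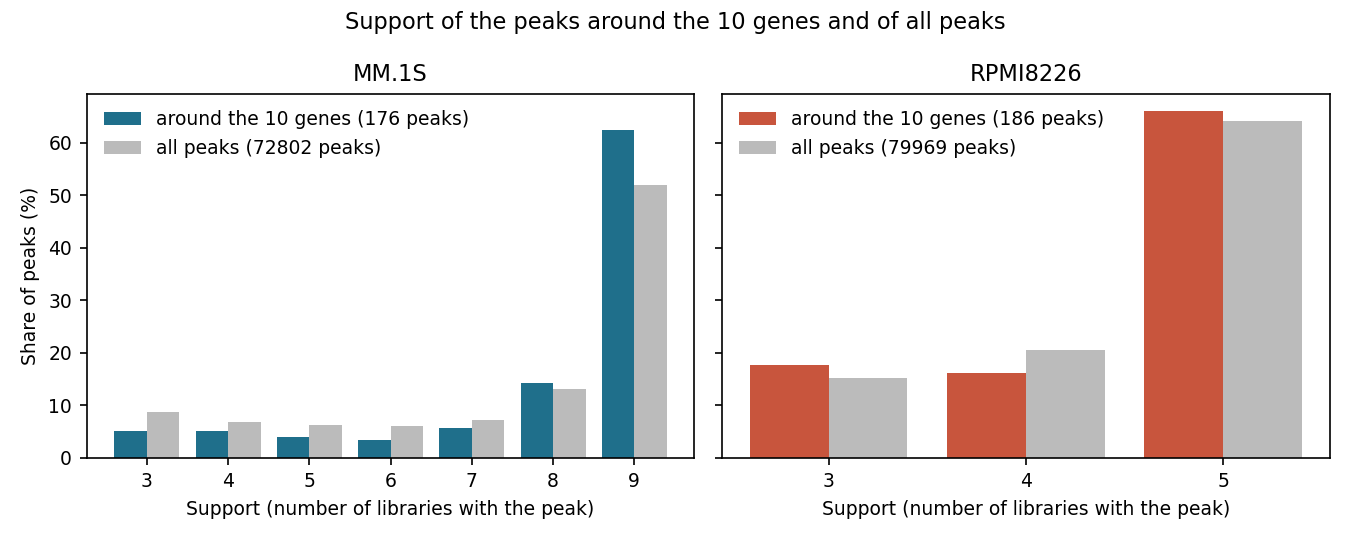
Share of peaks in percent (vertical axis) by support, the number of libraries with the peak (horizontal axis), for the peaks around the 10 genes (coloured) and the whole list (grey) in each line. In MM.1S 62.5% of the peaks around the 10 genes had support 9 beside 52.0% of the whole list, and in RPMI8226 66.1% had support 5 beside 64.1%.

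To compare motifs between lists of different peak width, the 300 bp centred on each peak was searched. In peaks narrower than 300 bp the search therefore ran past the ends of the peak. A GR element match was found in 6 of 176 MM.1S peaks, 3.41% (1.57 to 7.24), beside 1.63% of the whole list. In RPMI8226 it was found for 7 of 186 peaks, 3.76% (1.83 to 7.56), beside 1.61%. The match counted for the PER1 peak of 223 bp was not inside that peak. Both shares were above that of the list and rested on few peaks, and the interval held the share of the list in MM.1S. The MM.1S interval lay just above it when NR3C1, HSD11B2, SGK1, PER1 or DUSP1 was left out. Without NR3C1, for example, the share was 6 of 162, 3.70% (1.71 to 7.84). In RPMI8226 the interval lay above the share of the list with all genes. Without HSD11B1 the share was 4 of 157, 2.55% (0.995 to 6.37), and without ZBTB16 6 of 176, 3.41% (1.57 to 7.24). These 2 intervals held that of the list. Searching whole peaks gave 10 of 176, 5.68%, beside 3.11% in MM.1S, and 8 of 186, 4.30%, beside 2.13% in RPMI8226.

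Matches without a mismatch were rare in the whole lists, in 15 peaks (0.0206%) of MM.1S and 3 (0.00375%) of RPMI8226, and the FKBP5 intron holds 1 of the 15. Peaks with more than 1 match numbered 53 in MM.1S, 0.0728% of the list, and both of those around the 10 genes are the FKBP5 peaks printed above. These 2 peaks were singled out after their sequences were seen. Over all 14 matches, 7 lay in a shared peak, 5 in a peak of MM.1S only and 2 in a peak of RPMI8226 only. Of the 14, 10 lay in distal peaks. Whole peaks were searched here, which reaches further in the wider MM.1S peaks. The same split over the lists was not counted. In the central 300 bp, 1 of 5 distal MM.1S peaks with a match was in MM.1S only, beside 373 of 898 in the list. For RPMI8226 it was 1 of 4, beside 438 of 964. A match describes letters in the sequence and says nothing of whether the receptor binds there.

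AP-1 (TGACTCA, both strands), the motif of JUN and FOS proteins, matched in 29 of 176 MM.1S peaks, 16.5% (11.7 to 22.7) beside 9.91% of the list, and in 35 of 186 RPMI8226 peaks, 18.8% (13.9 to 25.0) beside 17.4%. In RPMI8226 the interval held the share of the list, and in MM.1S it did so without HSD11B1, where 21 of 154 peaks matched, 13.6% (9.10 to 19.9). HSD11B1 had the most AP-1 peaks in both lines, 8 and 8, and TSC22D3 had 0 and 0. NR3C1 had 2 in MM.1S and 6 in RPMI8226, of which 2 in either line were shared. For ATF::CEBP (TGATGNAA), STAT3 (TTCCNGGAA), the ETS-IRF composite (GGAA, a gap of 2 bases and GAAA) and CTCF (CCA, AG and GGC with gaps of 2 bases), the intervals held the share of the whole list in both lines. The ETS-IRF composite matched in 5 of 32 distal RPMI8226-only peaks, 15.6% (6.86 to 31.8), beside 6.39% of such peaks in the list. This subset was singled out after its values were seen. None of these motifs contains another, and a peak can hold several.

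**Figure D5:**
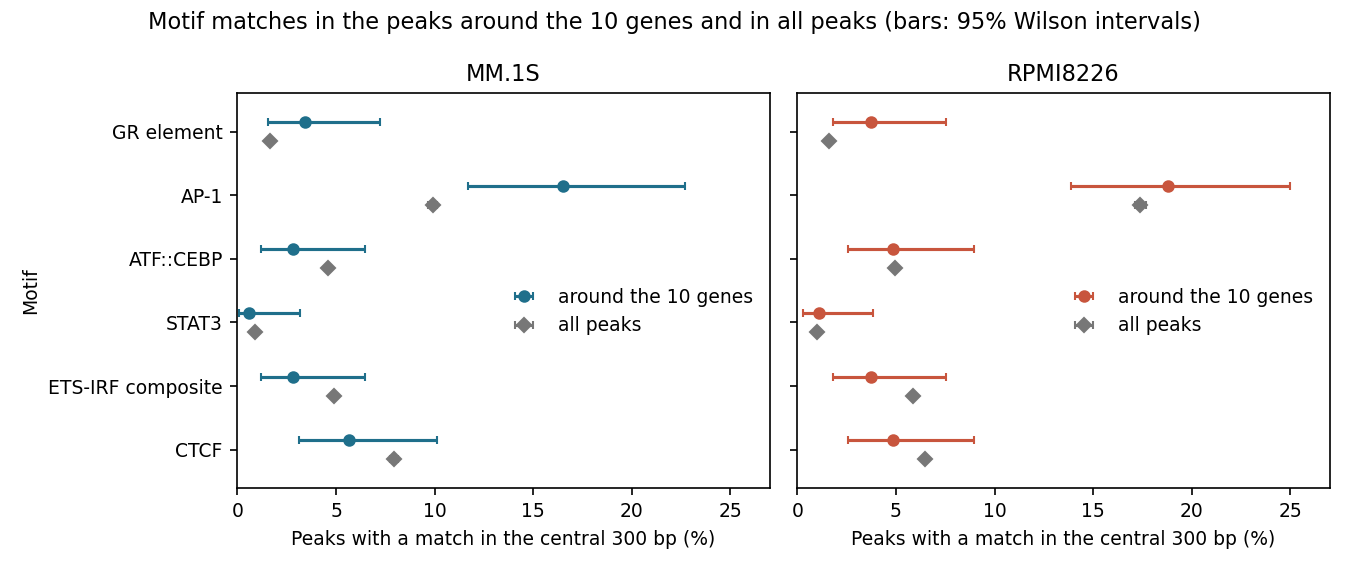
Percent of peaks (horizontal axis) with a match to each of 6 motifs in the 300 bp centred on the peak, for the peaks around the 10 genes (circles) and the whole list (diamonds), with 95% Wilson intervals as bars. The GR element matched in 3.41% and 3.76% of peaks around the 10 genes beside 1.63% and 1.61% of the lists, and AP-1 in 16.5% and 18.8% beside 9.91% and 17.4%.

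The RefSeq promoter table (GRCh38.p14, 250 bases before to 50 after each start) held 20 windows for 8 of the 10 genes. HSD11B2 and ZBTB16 were not matched. None of the 20 windows had a GR element match, and 1.41% of 35116 promoter windows had one. Of the 20 windows, 16 overlapped an MM.1S peak and 15 an RPMI8226 peak. These are not separate counts, since several NR3C1 windows lay under the same broad MM.1S peak. The share of all promoter windows with a peak was not counted. The windows without a peak in both lines were 1 of NR3C1, 2 of SGK1 and the one of KLF9, whose own-promoter peak began inside the gene. One TSC22D3 window was covered in MM.1S only. At these 8 genes the GR element matches in open chromatin were thus outside the RefSeq promoter windows. With matches in only 1.41% of all windows, finding none in 20 does not set these genes apart.

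Other genes of the pathway were nearly all open at their promoters. Of 27 such genes, a promoter peak was listed for 26 in MM.1S and 25 in RPMI8226, beside 76.9% and 71.9% of all protein-coding genes. All 12 chaperones and cofactors of the receptor had one in both lines, among them HSP90AA1, HSP90AB1, NCOR1 and EP300, as did the 3 genes of hormone handling, NR3C2, H6PD and ABCB1. Of 12 further targets 11 were open there in MM.1S and 10 in RPMI8226. ERRFI1, a feedback inhibitor of the EGF receptor, lacked a promoter peak in both lines, and GLUL, glutamine synthetase, lacked one in RPMI8226 only.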

How the data were processed

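Chromatin accessibility was measured by Omni-ATAC in 14 libraries, grouped by line and culture condition from their titles. By the study's methods and the submitters' processing notes, the authors aligned reads to hg38 with Bowtie2, left out reads with several positions, kept 1 read per position and called peaks with MACS3, and a peak in at least 3 libraries entered the line's reference list. The calling threshold and the joining of boundaries are not given in the sources used here. The deposited whole number of each peak, a count of libraries as read here from its range, is not normalized by the authors and has no header.

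Coordinates were read as BED and printed from 1. Gene positions came from GENCODE release 44 on the same build, while the study used RefSeq starts. Peaks were shared when they overlapped by at least 1 bp. Counts, overlaps and motifs used Python 3.11.15, pandas 2.3.3, pysam 0.24.0 and samtools 1.23.1. The functions were tested on simulated intervals and planted sites. Genes, gene lists and motifs were chosen with earlier results of these data known. For each gene the text names its own promoter peaks, the widest distal peak in each list, distal peaks with a GR element and the longest stretch of 1 line, and other regions were named after their values were seen. The planned tests of TSW, CO and MONO need read counts and were not run. Windows of 50 and 250 kb, promoters of 1000 and 5000 bp, stricter overlap, support and width, other motif limits and leaving out each gene were tried as alternatives.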

Additional observations from a re-analysis of the deposited data

How the results depend on the processing

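Of 238 alternative values, 209 stayed within the 95% interval of a share or within 1.5 times a count, and 29 moved. A window of 250 kb gave 296 peaks in MM.1S and 334 in RPMI8226. With only peaks found in all libraries there were 110 and 123 peaks, 81.8% and 83.7% of them shared, and a median of 3.85 peaks per 100 kb in MM.1S. With only peaks of the median width or more there were 104 and 101 peaks, of which 78.8% and 87.1% were shared, 60.6% and 60.4% were at promoters and 79.8% and 87.1% were in all libraries, at a median of 3.41 and 3.87 per 100 kb. An overlap of 50% of both peaks lowered the shared percent to 50.0% and 47.3%. Promoters within 1000 bp gave 40.3% and 39.8%, within 5000 bp 63.1% and 66.1%, and at protein-coding transcripts alone 33.0% and 34.4%. Without PER1 the promoter percent was 44.2% in MM.1S and 44.8% in RPMI8226. With up to 1 mismatch the GR element was in 0% of the central windows in MM.1S and 0.538% in RPMI8226. The latter was 1 of 186 windows, with the match outside its peak, since all matches inside RPMI8226 peaks had 2 mismatches. Its core with no mismatch was in 1.61% in RPMI8226, beside 0.439% of the list. In MM.1S the core was in 1.70%, beside 0.418%. Both intervals for the core lay above the share of the list, and each rested on 3 peaks. Without FKBP5 the percent with a GR element was 2.58% in MM.1S, and without HSD11B1 it was 2.55% in RPMI8226. Leaving out each gene for AP-1 and for peaks that could lack MONO was chosen after seeing the data. All 10 genes kept an own-promoter peak in both lines under each alternative run, except HSD11B1 in MM.1S when only wide peaks counted and ZBTB16 in RPMI8226 when only protein-coding transcripts did, which left 9.

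No paired analysis was possible because each list pools the libraries of its line, and for the same reason leaving out each library was not run. Depth limits every absence: a region missing from a list was called in fewer than 3 libraries and is not shown to be closed. Sharing depends on peak width, which differed between the lines.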
